A study of Mus musculus with 4 samples.

Results

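The 9 genes described here encode the lamins (Lmna, Lmnb1 and Lmnb2), the lamin B receptor (Lbr), and high mobility group (HMG) proteins of the HMGB family (Hmgb1, Hmgb2 and Hmgb3) and the HMGA family (Hmga1 and Hmga2), several of which are used as markers of senescent chromatin. They were chosen by name, with every probe that is not a control and whose gene name equals one of the 9, which gave 19 probes for 9 of the 31824 gene names on the array. RNA came from WT (p53+/+) and p53-/- mouse embryonic fibroblasts (MEFs), which are connective tissue cells grown from embryos, each without and with doxorubicin, a DNA-damaging anthracycline that poisons topoisomerase II. The study used the arrays to look for genes that p53 controls. The 4 conditions had 1 array each, all on 1 slide, so no difference below has a replicate check and no p-value was calculated. For the arrays, neither the dose and time of doxorubicin nor the strain, embryo age, passage and number of MEF preparations is given in the sources used here. No measure of senescence comes with these arrays.

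Lamins are intermediate filament proteins that line the inside of the nuclear envelope. B-type lamins stay anchored in the membrane by a farnesyl group, and LBR, a membrane protein that also carries a sterol reductase domain, ties heterochromatin to them. HMGB proteins bend DNA through HMG-box domains, HMGA proteins bind AT-rich DNA through AT-hooks, and loss of lamin B1, LBR and HMGB2 together with gain of HMGA proteins on chromatin has been described in senescent fibroblasts.

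Signals are the background-subtracted Cy3 intensities of the files. A level is the log2 signal of a probe minus the 75th percentile of its array, and a ratio is the difference between 2 levels, given as log2 or as a fold. Where a gene has several probes, the one with the highest mean is its main probe, and a value counts as measured where the scanner software marked the spots as well above background. All 9 main probes were measured on all 4 arrays and exceeded the brightest negative control on each of them. Repeat spots of a probe varied by 0.083 (SD of a log2 ratio), which covers spots on an array and not separate cultures. In bulk RNA such as this, fewer cells of a type and less RNA per cell cannot be told apart. Levels of different genes come from different probes and are not set against each other, except in sums over markers of a cell type. Those sums are only a rough guide, since the marker lists differ in size and the probes in brightness.

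The Trp53 probe had signals of 1228 and 3442 in WT MEFs without and with doxorubicin, and of 442.4 and 543.4 in p53-/- MEFs. The genotype labels and this probe therefore point the same way, with log2 ratios of p53-/- over WT of -1.33 without and -3.08 with doxorubicin, though it was not examined here if the deleted stretch covers this probe. All 10 fibroblast markers were well above background on all arrays, with a summed level, relative to the 75th percentile signal, of 563.1 to 836.7. For markers of other cells, the same sum was 2.60 to 3.24 for leukocytes (6 genes), 5.25 to 17.7 for epithelium (4 genes) and 2.29 to 4.16 for endothelium (3 genes). Epcam (epithelium) and Cdh5 (endothelium) were not well above background on any array, whereas Krt8 and Krt18 (signals of 8345 to 40299 for the latter), and Kdr (5269 to 7434) and Pecam1, were so on all 4. Of the leukocyte markers, 4 to 6 were well above background on an array. Whether other cells contributed to the values below was not tested.

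With doxorubicin, Lbr, Hmgb2, Hmgb1 and Lmnb1 were at least 2-fold lower in WT MEFs, and none of the 9 genes was at least 2-fold higher. Among all 17546 measured genes, 10.4% were at least 2-fold lower and 11.0% at least 2-fold higher, and the median log2 ratio was 0.01 against -0.77 for the 9 genes. In p53-/- MEFs, Hmga2 was the only one at least 2-fold lower (all genes 6.89%) and again none was at least 2-fold higher (all genes 9.24%), with a median of -0.19 against 0.00. Past 2-fold were thus Lbr, Hmgb2, Hmgb1 and Lmnb1 in one genotype and Hmga2 in the other, which is a description and not a test. This split hangs on the cutoff and the scaling, as Hmgb1 had -0.94 (1.92-fold lower) in p53-/- MEFs. Median scaling of the arrays put Hmgb1 (WT -1.69, p53-/- -1.24) and Hmga2 (WT -1.05, p53-/- -2.96) past 2-fold in both genotypes. How many of all genes passed 2-fold in both is not given here. The lowest ratio belonged to Lbr in WT MEFs and to Hmga2 in p53-/- MEFs.

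Without doxorubicin, Lmnb1 and Hmgb2 were at least 2-fold higher in p53-/- than in WT MEFs, beside 2.15% of 17318 genes, and none was at least 2-fold lower (all genes 2.61%). All 9 log2 ratios were above 0, with a median of 0.70 against 0.00 for all genes, although that of Lmna was only 0.02 and became -0.03 when arrays were scaled to their medians. With doxorubicin, 3 genes (Hmgb2, Lbr and Lmnb1) were at least 2-fold higher in p53-/- MEFs (all genes 11.9%) and Hmga2 alone was at least 2-fold lower (all genes 10.3%). With the mean over the probes of each gene, Hmga1 joined the genes 2-fold higher in untreated and Hmgb1 those in treated p53-/- MEFs. The counts were then 3 (all genes 2.14%) and 4 (all genes 11.8%). The ratios between genotypes use the same 4 arrays as the doxorubicin ratios and are the same data seen the other way. Over the 4 arrays, the log2 levels spanned 4.07 for Hmgb2, 3.02 for Lbr, 2.81 for Lmnb1 and 2.66 for Hmga2, but 0.37 each for Lmna and Lmnb2.

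**Figure D1:**
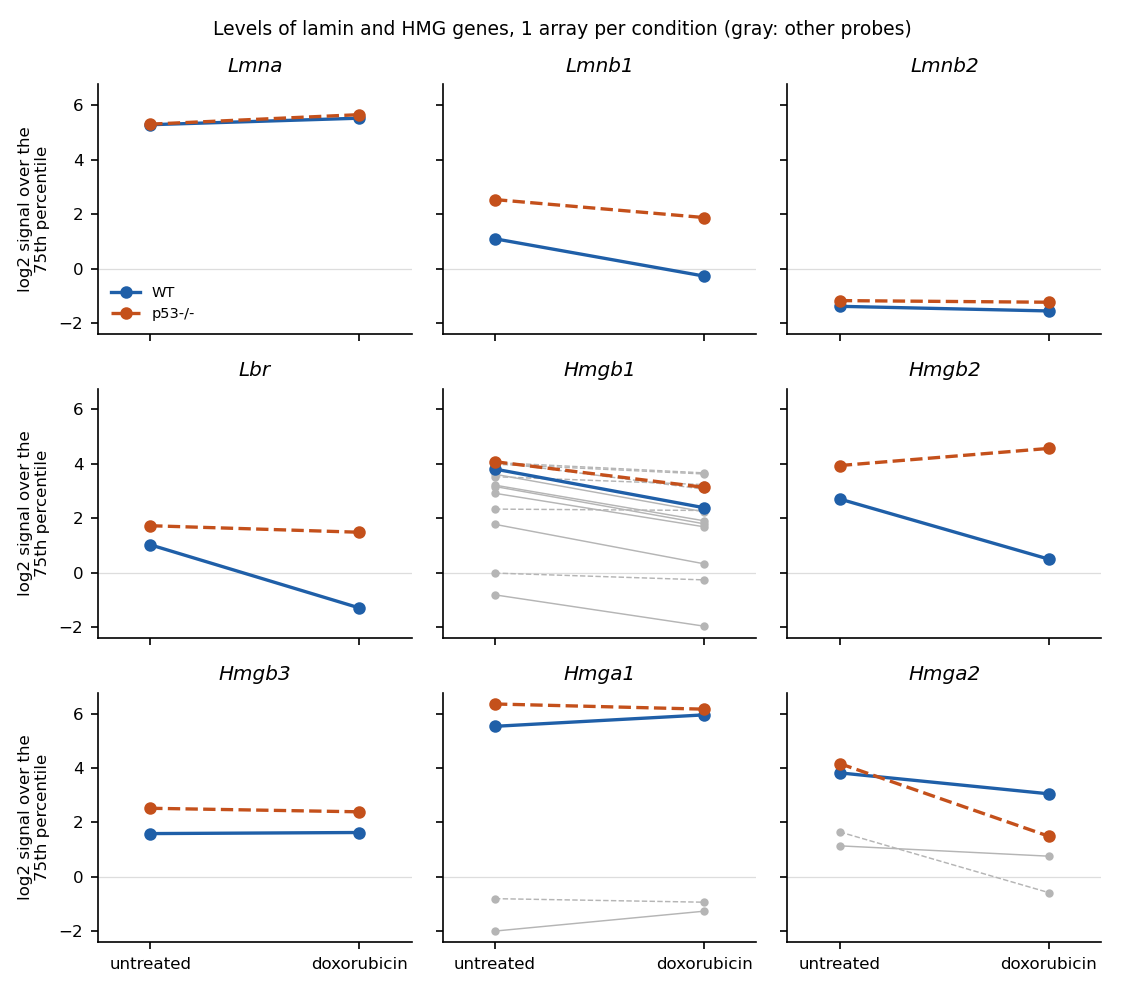
Log2 signal over the 75th percentile of the array (vertical axis) without and with doxorubicin (horizontal axis) for each of the 9 genes. Each point is 1 array, solid blue lines join the WT and dashed orange lines the p53-/- arrays, and gray lines are further probes that were well above background on all 4 arrays. There are no replicates and therefore no error bars. The lines of Hmgb2, Lbr and Lmnb1 reach their lowest point in doxorubicin-treated WT MEFs, and those of Hmga2 in doxorubicin-treated p53-/- MEFs.

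The lamin genes did not move together. Lmnb1, which encodes lamin B1, had a probe (chromosome 18 of mm9, 56912871 to 56912930) with 10 spots on each array. Its mean signal in WT MEFs was 4465 ± 167 (SD, n = 10 spots) without and 1513 ± 37.4 with doxorubicin. The p53-/- arrays gave 10946 ± 289 without and 8916 ± 222 with doxorubicin. Every spot of the treated WT array (highest 1598) was dimmer than every spot of the untreated one (lowest 4140), and both p53-/- arrays lay above both WT arrays. The log2 ratio to untreated cells was -1.37 (2.59-fold lower) in WT and -0.66 (1.58-fold lower) in p53-/- MEFs. Of the 17546 genes, 1022 had a lower ratio in WT MEFs, and the Lmnb1 difference between genotypes without doxorubicin (log2 ratio 1.44, 2.71-fold) was exceeded by 77 of 17318 genes.

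Lmna, which encodes lamins A and C by alternative splicing, had signals of 81106 and 84125 in WT MEFs without and with doxorubicin, and of 74439 and 122472 in p53-/- MEFs (chromosome 3, 88287262 to 88287321). After scaling, the log2 ratio was 0.24 in WT and 0.35 in p53-/- MEFs. The WT value turned to -0.03 with scaling to the array median. Lmnb2, which encodes lamin B2, had signals of 794.4, 621.7, 833.8 and 1035 in untreated WT, treated WT, untreated p53-/- and treated p53-/- MEFs (chromosome 10, 80365545 to 80365604). Doxorubicin gave a ratio of -0.16 in WT and -0.05 in p53-/- MEFs, both near the middle of all genes. For both genes, the highest and lowest of the 4 arrays were close after scaling, at 1.29-fold (Lmna) and 1.30-fold (Lmnb2).

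Lbr was the gene with the lowest ratio of the 9 in WT MEFs. Its main probe (chromosome 1, 183745893 to 183745952) had a signal of 4227 without and 741.6 with doxorubicin in WT MEFs, and of 6219 and 6821 in p53-/- MEFs. The treated WT array stood alone below the other three. The log2 ratio was -2.32 (5.0-fold lower) in WT and -0.23 in p53-/- MEFs, and 274 of 17546 genes had a lower ratio in WT. A second, dimmer Lbr probe (183746674 to 183746733) gave signals of 218.1, 38.45, 314.7 and 404.2 in the order untreated WT, treated WT, untreated p53-/- and treated p53-/-. Treated WT MEFs were not well above background there and were at least 4.31-fold lower than untreated WT MEFs, bounded by the lowest signal so marked on that array. The same probe had a log2 ratio of 0.00 in p53-/- MEFs. The WT log2 ratio of the main probe minus that in p53-/- MEFs was -2.09, which put 379 of 16538 genes below it.

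LBR shares its reductase activity with enzymes of cholesterol synthesis, and Dhcr7 and Tm7sf2 were examined beside it. The ratios in WT and p53-/- MEFs were -2.25 and -2.00 for Dhcr7 and -0.82 and -0.39 for Tm7sf2, whose product reduces the same sterol bond as LBR. Dhcr7 was thus at least 2-fold lower in both genotypes, where Lbr was so only in WT MEFs, and this contrast was not tested.

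Hmgb2, a DNA-bending protein that is abundant in dividing cells, had the widest span. Its probe (chromosome 8, 59992929 to 59992988) read 13586 in untreated and 2569 in treated WT MEFs. The p53-/- arrays read 28841 before and 57478 after doxorubicin. Doxorubicin went with a lower signal in one genotype and a higher one in the other, at -2.21 (4.64-fold lower) for WT and 0.63 (1.55-fold higher) for p53-/- MEFs on the log2 scale. Between treated cells, p53-/- MEFs were 16.8-fold above WT MEFs (log2 ratio 4.07), and 85 of 17918 genes had a higher ratio. The difference of the doxorubicin ratios was -2.84, beside 161 of 16538 genes with a lower one.

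Among the 16538 genes, 9.83% had a difference of -1 or lower and 8.39% of 1 or higher. Of the 9 genes, Hmgb2 and Lbr were in the former class and Hmga2 in the latter, and the median difference of the 9 was -0.11 against 0.01 for all genes. Lmnb1 (-0.71) and Hmgb1 (-0.48) lay between these classes. The Hmgb1 value is that of its main probe, and over its 7 probes the difference ran from -1.40 to -0.38 (mean -0.86).

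**Figure D2:**
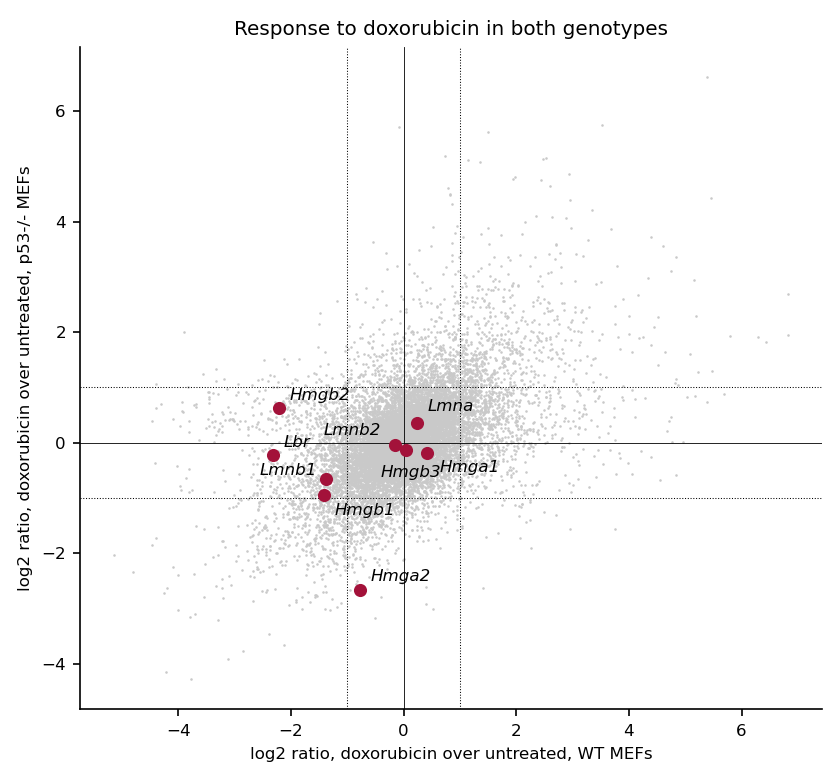
Log2 ratio of doxorubicin-treated over untreated MEFs in WT (horizontal axis) and p53-/- (vertical axis) cells, with 1 array per condition. Gray points are the 16538 genes measured on all 4 arrays, red points are the 9 named genes, and dotted lines mark 2-fold. Hmgb2 lies at -2.21 and 0.63, Lbr at -2.32 and -0.23, and Hmga2 at -0.77 and -2.66, while Lmna, Lmnb2, Hmgb3 and Hmga1 lie near the center.

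The promoters of Hmgb2, Lbr and Hmgb1 are shown because these genes, with Lmnb1, had the lowest ratios in WT MEFs, and because motifs of cell cycle promoters could be read in them. The sequences are the 250 bases before the transcription start in RefSeq (GRCm38.p6), read 5′ to 3′ in the direction of the gene. Capitals mark the CCAAT box, the element of the factor NF-Y, and the cell cycle genes homology region (CHR; TTTGAA, or TTCAAA on the other strand).
Hmgb2 (chr8:57511593-57511842, plus strand): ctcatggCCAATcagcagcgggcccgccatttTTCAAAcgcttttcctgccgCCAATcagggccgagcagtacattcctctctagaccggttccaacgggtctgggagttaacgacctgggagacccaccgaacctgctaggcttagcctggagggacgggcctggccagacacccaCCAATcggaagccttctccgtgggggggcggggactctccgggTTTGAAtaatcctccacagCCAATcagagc
Lbr (chr1:181842402-181842651, minus strand): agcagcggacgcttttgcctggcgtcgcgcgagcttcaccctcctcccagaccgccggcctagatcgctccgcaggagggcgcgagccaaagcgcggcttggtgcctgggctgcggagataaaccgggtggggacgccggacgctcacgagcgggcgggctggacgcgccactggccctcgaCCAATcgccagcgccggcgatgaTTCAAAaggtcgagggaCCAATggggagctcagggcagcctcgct
Hmgb1 (chr5:149053058-149053307, minus strand): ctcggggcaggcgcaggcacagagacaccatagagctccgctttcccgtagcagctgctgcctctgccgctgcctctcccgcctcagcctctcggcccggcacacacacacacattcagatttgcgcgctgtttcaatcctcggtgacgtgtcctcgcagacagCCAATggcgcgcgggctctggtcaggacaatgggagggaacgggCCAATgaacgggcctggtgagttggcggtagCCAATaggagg

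The Hmgb2 promoter held 4 CCAAT boxes and 2 CHR motifs, the nearer CHR starting 30 bases before the transcription start. That of Lbr held 2 CCAAT boxes and 1 CHR, which began 45 bases before the start and lay between the boxes. Hmgb1 had 3 CCAAT boxes and no CHR in its first listed promoter and neither motif in its second. Both strands were searched, and no motif overlapped another in these windows. Of all 32851 promoters of that length, 16.0% held a CHR, 33.8% a CCAAT box, 5.55% both, and 2.79% held 3 or more CCAAT boxes. Among the 8 of the 9 genes with a promoter in the table, Hmgb2, Lbr and Hmgb3 held both motifs, and Hmgb3 (1 CHR and 3 CCAAT boxes) had a log2 ratio of 0.04 in WT MEFs. An E2F motif (GCGGGAA on either strand, 3.82% of all promoters) was found once, in Hmga2. Such matches are letters in a window and not bound sites.

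Across the 4 arrays, the genes with the profile nearest to that of Hmgb2 were Foxm1 (root mean square difference of centered log2 levels 0.02), Cenpa (0.04) and Fancb (0.07), of 11695 genes that carry a symbol and were measured on all arrays. FOXM1 is a transcription factor of late cell cycle genes, CENP-A the histone H3 variant of centromeres, and FANCB a protein of DNA crosslink repair. Foxm1 signals were 1613, 310.1, 3389 and 6678 in untreated WT, treated WT, untreated p53-/- and treated p53-/- MEFs, so the order of the arrays was that of Hmgb2. Nearest to Lbr were Fndc4 (0.11), Tgfbi (0.12) and Smc4 (0.15), and nearest to Lmnb1 were Bub1b (0.10), Dbf4 (0.14) and Hunk (0.16). SMC4 is a condensin subunit, BUB1B a mitotic checkpoint kinase and DBF4 the activator of a kinase that starts DNA replication. Among the 9 genes themselves, Lmnb1 and Lbr were 0.37 apart, Lbr and Hmgb2 0.55, and Hmgb2 and Hmga2 2.07. With 4 points per gene these distances describe the arrays and nothing more.

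Hmgb1 encodes a chromatin protein that is also released from damaged or senescent cells as an alarmin. Its main probe (chromosome 5, 149860420 to 149860479) had signals of 29143 without and 9565 with doxorubicin in WT MEFs. The p53-/- signals were 31736 and 21323. The treated arrays were the lower ones in both genotypes, by log2 ratios of -1.42 (2.67-fold) for WT and -0.94 (1.92-fold) for p53-/- MEFs. Of 16978 genes, 1332 had a lower ratio in p53-/- MEFs.

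The array carries 7 probes for Hmgb1, and they disagreed in p53-/- MEFs. In WT MEFs all 7 log2 ratios lay between -1.45 and -1.15. The 2 most upstream probes gave -1.0 and -0.94 in p53-/- MEFs, whereas the other 5 gave -0.38 to -0.05. Between treated cells, p53-/- over WT was 0.83 and 0.74 for the former and 1.54 to 1.96 for the latter. The split was seen in the values and then described, and the mean over the 7 probes was -1.33 in WT and -0.47 in p53-/- MEFs. The most upstream probe lies from 149861395 to 149861454 and the most downstream one 2457 bases further along this minus-strand gene, from 149858938 to 149858997.

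**Figure D3:**
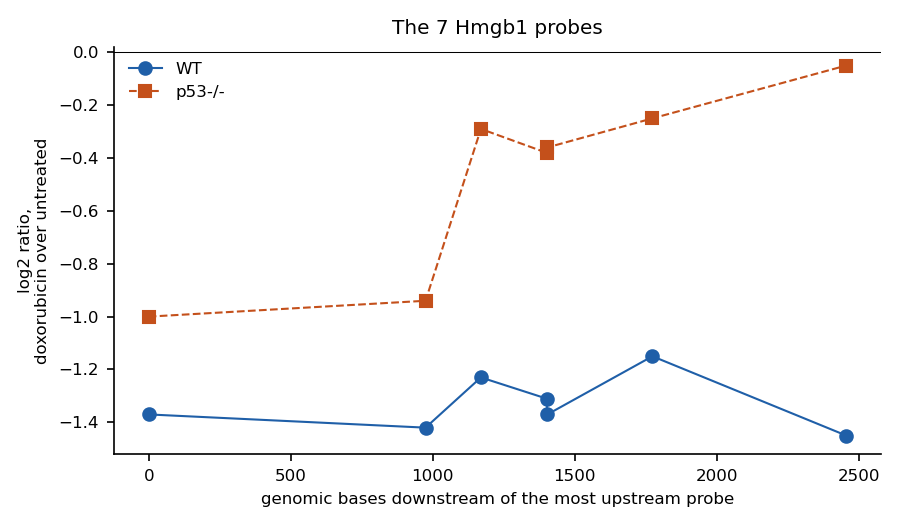
Log2 ratio of doxorubicin-treated over untreated MEFs (vertical axis) for the 7 Hmgb1 probes, placed by their distance in genomic bases downstream of the most upstream probe (horizontal axis). Each point is 1 probe on a pair of arrays, with circles for WT and squares for p53-/- MEFs. The WT points stay between -1.45 and -1.15, and the p53-/- points lie at -1.0 and -0.94 for the first 2 probes and between -0.38 and -0.05 for the others.

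The sequences of the 2 upstream probes are printed because their p53-/- ratios stood apart from the others, and the second of them is the main probe that gives the value of the gene.
Probe from 149861395: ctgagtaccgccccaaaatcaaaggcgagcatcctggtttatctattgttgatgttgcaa
Probe from 149860420: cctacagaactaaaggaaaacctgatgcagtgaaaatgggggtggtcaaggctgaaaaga
RefSeq lists 13 Hmgb1 pseudogenes or related sequences, so a probe for Hmgb1 may also catch transcripts of near-identical copies, and its values are uncertain to that extent. Among the 5 downstream probes, a pair is listed only 3 bases apart (starts 149859994 and 149859991) yet differs at 2 of 57 shared bases. The last 30 of these shared bases are shown, with the differing bases in capitals.
Probe from 149859994: atatatggggacagtagtttggCtttttCt
Probe from 149859991: atatatggggacagtagtttggTtttttGt
These 2 gave ratios of -1.31 and -1.37 in WT and of -0.38 and -0.36 in p53-/- MEFs, closer to each other than the spread of repeat spots. Exons and untranslated parts were not assigned to the probes here, since the positions are those of mm9.

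Hmgb3, the X-linked member of the family, had signals of 6237 and 5621 in WT and of 10779 and 12668 in p53-/- MEFs without and with doxorubicin (chromosome X, 68813666 to 68813725). Both p53-/- arrays lay above both WT arrays. Its ratio to untreated cells was 0.04 in WT MEFs, which became -0.24 with scaling to the array median, and -0.13 in p53-/- MEFs. The genotypes differed more than the treatments, at log2 ratios of 0.93 (1.91-fold) without and 0.76 (1.69-fold) with doxorubicin, and 477 of 17318 genes had a higher ratio without doxorubicin.

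Hmga2, an AT-hook protein of embryonic and proliferating cells, was the gene that was lower after doxorubicin in p53-/- MEFs above all. The main probe (chromosome 10, 119798739 to 119798798) had signals of 29348 and 15035 in WT MEFs without and with doxorubicin. For p53-/- MEFs they were 33565 and 6816. The treated p53-/- array was the lowest of the 4, where Hmgb2 and Lbr were lowest on the treated WT array. The log2 ratio was -0.77 (1.71-fold lower) in WT and -2.66 (6.34-fold lower) in p53-/- MEFs, and 39 of 16978 genes (0.230%) had a lower ratio in the latter. A second probe (119800621 to 119800680) had signals of 4569, 3080, 5903 and 1622 in untreated WT, treated WT, untreated p53-/- and treated p53-/- MEFs. It gave -0.38 in WT and -2.23 in p53-/- MEFs, so both probes put the treated p53-/- array lowest and had differences of 1.89 and 1.85.

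A probe for the pseudogene Hmga2-ps1 went the other way, with signals of 596.6 and 2080 in WT and of 749.8 and 1551 in p53-/- MEFs. Its log2 ratios were 1.99 and 0.68.

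Hmga2 transcripts are a known target of the let-7 miRNAs, whose maturation LIN28 proteins block. The main Hmga2 probe holds a match to the let-7 seed (bases 2 to 8), shown in capitals in 30 bases of the probe and in mature let-7a from RefSeq.
Hmga2 probe: atcaaaacacactaCTACCTCttaagtccc
let-7a: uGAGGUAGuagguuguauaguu
It was the only probe of the 9 genes with this match, which 0.380% of all 39429 probes hold. The miRNAs themselves were not measured by these arrays. Lin28b had signals of 21.97, 88.42, 89.83 and 550.5 in untreated WT, treated WT, untreated p53-/- and treated p53-/- MEFs, and was not well above background in the first. Its log2 ratio was 2.25 in p53-/- MEFs, where the untreated signal was below the brightest negative control of that array (250.1). Lin28, its paralog, had signals of 305.7 and 304.8 in WT and of 490.6 and 360.6 in p53-/- MEFs, log2 ratios of 0.19 and -0.81, so the LIN28 genes did not move one way. The mRNA-binding proteins of this list had ratios of -0.03 (Igf2bp1), -0.92 (Igf2bp2) and -0.77 (Igf2bp3) in p53-/- MEFs, and Dicer1, the nuclease that cuts miRNA precursors, had -0.68.

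Hmga1, the other AT-hook gene, had signals of 96146 and 112340 in WT and of 153471 and 172869 in p53-/- MEFs (chromosome 17, 27700543 to 27700602). The log2 ratio to untreated cells was 0.41 in WT and -0.19 in p53-/- MEFs, and without doxorubicin p53-/- MEFs were 1.76-fold above WT MEFs. A second probe (27696588 to 27696647) with signals of 523.1, 756.9, 1078 and 1267, in the order used for Hmga2, gave 0.72 and -0.13 for doxorubicin. With that probe, untreated p53-/- MEFs were 2.27-fold above WT MEFs. The third probe (56.42 to 66.2) was well above background on 2 arrays only and gave no ratio. With doxorubicin, Hmga2 thus passed 2-fold in p53-/- MEFs, and also in WT MEFs (-1.05) with scaling to the array median, and Hmga1 in neither genotype.

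The 9 genes were set beside the other genes of their surroundings. Of 19 measured proliferation markers, 16 were at least 2-fold lower in WT MEFs after doxorubicin (all genes 10.4%) and none higher, with a median log2 ratio of -2.33. Top2a (-4.47) and Mki67 (-3.97) were the lowest, and Rrm2 (-0.36) and E2f1 (-0.50) the highest. In p53-/- MEFs none was lower (all genes 6.89%), 1 was higher (all genes 9.24%) and the median was 0.42. Between genotypes, the median was 1.13 without doxorubicin and 4.02 with it. All 19 were at least 2-fold higher in treated p53-/- than in treated WT MEFs (all genes 11.9%). In WT MEFs the proliferation markers thus moved with Hmgb2, Lbr and Lmnb1. In p53-/- MEFs all 19 had ratios above 0 (0.21 to 1.05), like Hmgb2 (0.63) and unlike Lbr (-0.23) and Lmnb1 (-0.66). Their part in the values of these genes was not tested. The signs of the smaller p53-/- ratios hang on the scaling. With scaling to the array median, the median of all genes was -0.30 there and Hmgb2 had 0.33.

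Of 11 senescence markers, 3 were at least 2-fold higher in treated WT MEFs (all genes 11.0%) and none lower, with a median of 0.27. For p53-/- MEFs, 4 were higher (all genes 9.24%) and none lower, with a median of 0.03. Cdkn1a, which encodes the cell cycle inhibitor p21, had signals of 28619 and 105995 in WT and of 976.7 and 5912 in p53-/- MEFs, log2 ratios of 2.08 and 2.23. Mmp3, a matrix protease, had 1.38 and 1.89, while Igfbp3, an IGF-binding protein, had ratios below 0 in both (-0.50 and -0.56). Not all markers of the list moved alike in both genotypes, as the WT ratio minus the p53-/- ratio spanned -3.37 to 0.25. This difference was -1 or lower in 2 of the 11 (all genes 9.83%) and 1 or higher in none (all genes 8.39%).

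Of 15 genes for partners of lamins at the nuclear envelope, 2 were at least 2-fold lower and 1 higher in treated WT MEFs. The median was -0.27, and these counts were near the shares of all genes (10.4% and 11.0%). None passed 2-fold in p53-/- MEFs (median -0.02), where all genes gave 6.89% lower and 9.24% higher. Nrm, an inner nuclear membrane protein, had signals of 529.4, 131.4, 970.5 and 1094 in untreated WT, treated WT, untreated p53-/- and treated p53-/- MEFs. The ratio to untreated cells was -1.82 in WT MEFs and -0.19 in p53-/- MEFs (log2). Unc84b, the former name of Sun2, which links lamins to the cytoskeleton, had -1.60 and 0.69. Tmem43 (1.18 and 0.32) and emerin (Emd; 0.91 and -0.19) had the highest WT ratios. Of 5 genes for lamin processing, only Icmt, which methylates farnesylated proteins, passed 2-fold in WT MEFs (1.12, all genes 11.0% higher). None did in p53-/- MEFs (all genes 6.89% lower and 9.24% higher).

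Of 17 other HMG genes, 4 were at least 2-fold lower and 1 higher in treated WT MEFs (median -0.19), where all genes gave 10.4% and 11.0%. In p53-/- MEFs 1 was lower and 1 higher (median 0.08), where all genes gave 6.89% and 9.24%. Hmgn2, which binds nucleosomes, had signals of 35683 and 9044 in WT and of 48114 and 105275 in p53-/- MEFs, log2 ratios of -1.79 and 0.77 with the same signs as Hmgb2. Tox, an HMG-box protein of developing T cells, had -1.53 and -1.19, and the HMG-box factors of Wnt signaling Lef1 (2.05 and 0.66) and Tcf7l2 (0.65 and 0.28) had the highest WT ratios.

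Of 15 factors of senescence-associated heterochromatin, 3 were at least 2-fold lower and 2 higher in treated WT MEFs (median -0.16, all genes 10.4% and 11.0%), against 1 lower and 2 higher in p53-/- MEFs (median 0.03, all genes 6.89% and 9.24%). Cbx3, which encodes the heterochromatin protein HP1γ, had signals of 28882 and 8663 in WT and of 33115 and 34164 in p53-/- MEFs. Its log2 ratio was -1.55 in WT and -0.32 in p53-/- MEFs, and Suv39h1, a histone H3 methyltransferase, had -1.30 and 0.52. Cbx1 (HP1β), with 2.07 and 3.40, and Pml (1.59 and 0.92) were higher in both. The untreated p53-/- signal of Cbx1 (210.4) was below the brightest negative control of that array (250.1), so its ratio of 3.40 is uncertain. Between treated genotypes, 6 of the 15 were at least 2-fold higher in p53-/- MEFs (all genes 11.9%) and none lower.

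**Figure D4:**
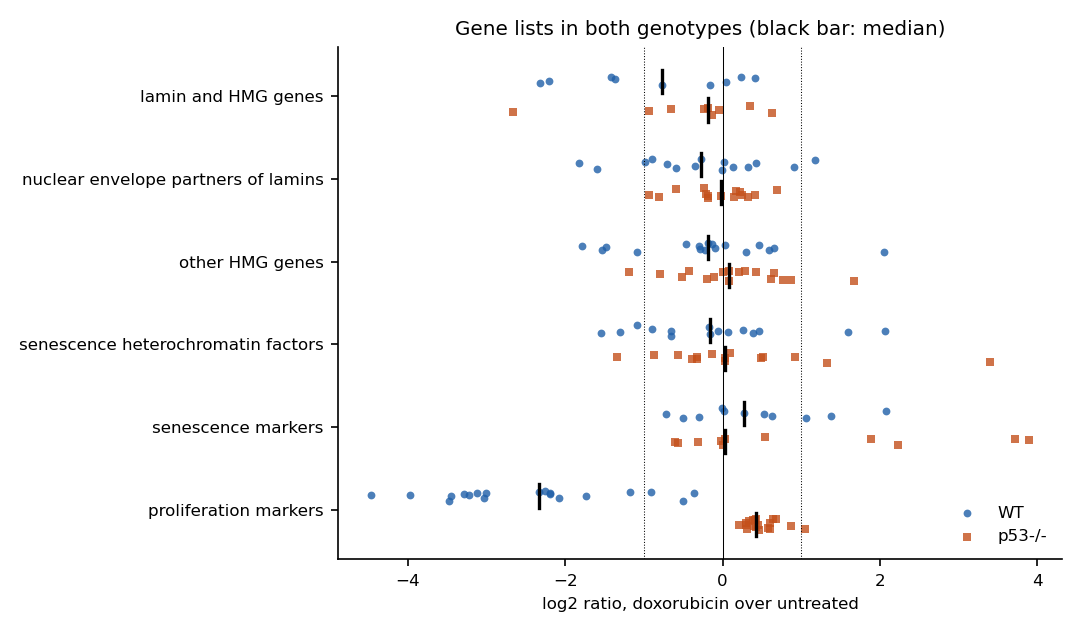
Log2 ratio of doxorubicin-treated over untreated MEFs (horizontal axis) for each measured gene of 6 lists (vertical axis), with blue circles for WT and orange squares for p53-/- MEFs and 1 array per condition. Points are spread vertically only to be seen, black bars are medians and dotted lines mark 2-fold. The medians of the lamin and HMG genes are -0.77 and -0.19, and those of the proliferation markers -2.33 and 0.42.

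Receptors and partners of extracellular HMGB1 were mixed. Tlr2, a receptor of innate immunity, had a log2 ratio of 0.26 in WT MEFs and of 1.48 in p53-/- MEFs, and Tlr4 had 0.34 and 1.77. Cxcl12, a chemokine that forms a complex with HMGB1, had -2.95 and -2.05, below 0 in both genotypes as Hmgb1 was. Its receptor gene Cxcr4 had 1.80 in p53-/- MEFs, where the untreated signal (76.62) was below the brightest negative control (250.1). Cxcr4 was not well above background in untreated WT MEFs. Ager, which encodes the receptor RAGE, was well above background on 1 array only.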

How the data were processed

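For each condition the authors labeled total RNA (200 ng, Cy3) for an Agilent mouse array. The deposited intensities were background-subtracted within each array by Feature Extraction 10.7.3.1 and not normalized between arrays. The deposited table of intensities for all arrays was equal at all 44397 spots. The deposited 0 or 1 flags mark outlier, saturated (0 spots) and well-above-background spots. The mean and background intensities, also deposited, served 1 alternative. Fold changes from the Subio Platform, which the methods mention, were not used.

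Outlier spots were left out, repeat spots were averaged on the log2 scale, and the 75th percentile (signals of 1819 to 2422) was subtracted. Between 56.9% and 62.9% of 39429 probes were well above background, and the brightest negative controls reached 77.5 to 250.1. A gene was its main probe under the name in the files. Called means at least 2-fold, or 1 log2 unit for a difference of ratios. Spot spread came from 233 probes with repeat spots, and the number of arrays limits the precision.

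The 9 genes and all lists were chosen with earlier results of these data known. Named from each list were the 2 highest and 2 lowest WT ratios (any gene for lists of 10 or fewer), for the 3 genes with the widest range the 3 nearest profiles, and Trp53. Some genes that this rule names are not reported here. The alternatives were other scalings (array median, quantile), normexp with an offset of 50, other filters (none on dim probes, measured on all arrays, above the brightest negative control), a gene as the mean over its probes, the deposited table in place of the scanner values, and thresholds of 1.5-fold or 3-fold. The steps were tested on simulated data. Python 3.11.15 with numpy 2.4.6, pandas 2.3.3 and matplotlib 3.10.9 and R 4.3.3 with limma 3.58.1 were used. RefSeq promoters and miRNAs (GRCm38.p6) were matched by symbol.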

Additional observations from a re-analysis of the deposited data

Results flagged for a closer look

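Hmgb2 was at least 1.5-fold lower with doxorubicin in WT and at least 1.5-fold higher in p53-/- MEFs, and the difference of its log2 ratios was -2.84. The p53-/- part hangs on the scaling. Its log2 ratio was 0.63 in the main setting and 0.33 with scaling to the array median, which is below 1.5-fold. The difference was then -2.82. The 2 genotypes moved in opposite directions on 1 array per condition, and the difference was not tested.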

How the results depend on the processing

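Of 360 recomputed values of the 9 genes, 319 stayed within the spot spread, 41 moved beyond it and 3 changed sign, none of them a value of 2-fold or more. Much of the count of 319 was fixed in advance. The filters and the deposited table could not change any value, because all main probes passed every filter and the table was equal. Averaging could not change the 5 genes with 1 probe. The 3 sign changes came from scaling to the array median. They were Lmna (-0.03) and Hmgb3 (-0.24) with doxorubicin in WT MEFs and Lmna between untreated genotypes (-0.03). This scaling moved the all-gene median to -0.27 (WT) and -0.30 (p53-/-), where 15.9% and 12.4% of genes were then at least 2-fold lower and 7.53% and 5.63% higher. The median of the 9 genes became -1.05 in WT and -0.49 in p53-/- MEFs. In the latter, 2 genes (Hmga2, and Hmgb1 by its main probe) were at least 2-fold lower. In WT MEFs 5 rather than 4 were so, as Hmga2 became -1.05. Quantile normalization gave a median difference between genotypes of -0.27, while averaging the probes of each gene gave a WT median of -0.58. With that averaging, 3 genes (all genes 2.14%) were at least 2-fold higher in untreated and 4 (11.8%) in treated p53-/- MEFs. At 1.5-fold, 3 genes were lower (all genes 15.9%) and 1 higher (19.4%) in p53-/- MEFs with doxorubicin. Higher in p53-/- than in WT MEFs were 5 without (all genes 8.74%) and 5 with doxorubicin (22.8%). A difference of doxorubicin ratios that high was found for 2 genes (all genes 18.4%). At 3-fold, 2 genes were lower in treated WT MEFs (all genes 4.18%) and 0 were higher in untreated p53-/- MEFs (all genes 0.254%). Also 0 were lower in treated p53-/- than in treated WT MEFs (all genes 4.82%). Where a threshold was moved, the count follows from it, and for the others the cause was not tested. No paired analysis was possible because each condition had 1 array. A slide block could not be fitted with 1 slide, and position on the slide and condition cannot be told apart.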
